A study of Mus musculus with 8 samples.

Results

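Cell proliferation markers are mRNAs that accumulate while cells copy their DNA and divide, and 10 of them were followed here in electroporated mouse skeletal muscle. They were *Mki67*, *Top2a*, *Ccnb1*, *Ccna2*, *Cdk1*, *Birc5*, *Pcna*, *Mcm2*, *Mcm5* and *Rrm2*, taken by gene name from a table of 41709 genes. All 10 were found. The 8 tibialis anterior (TA) muscles came from 4 male C57BL/6J mice aged 3 months. In each mouse, 1 TA muscle was electroporated with a pool of siRNAs against *Uba1* (SMARTpool), the gene for the E1 enzyme that activates ubiquitin, and the contralateral TA with a pool of control non-targeting (NT) siRNAs, so the groups had 4 muscles each. All 8 muscles were given hyaluronidase before the siRNAs and were collected 7 days after electroporation. Names with the letter R mark all muscles with NT siRNAs and names with the letter L all muscles with *Uba1* siRNAs, and so leg and siRNA cannot be told apart. The labels' treatment tags name UBA1 for replicate 1 only and UBA2, UBA3 and UBA4 for the other 3, whereas titles and descriptions name UBA1 for all 4. The electroporated siRNAs can enter any cell of the muscle and not only myofibers, and the RNA was taken from whole muscle.

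Myofibers, the contractile cells of muscle, hold many nuclei and no longer divide. Dividing cells in muscle are satellite cells and the myoblasts they give rise to, and cells of the tissue between the fibers such as macrophages, fibroblasts and endothelial cells; injury is known to raise their division. The markers follow the cell cycle in order: replication genes such as *Pcna*, *Mcm2*, *Mcm5* and *Rrm2* are transcribed by E2F factors as cells enter S phase, and *Ccna2*, *Cdk1*, *Top2a*, *Ccnb1* and *Birc5* later, in G2 and mitosis, through promoters that often carry CCAAT boxes and a cell cycle homology region (CHR). Many cell cycle proteins, the cyclins among them, are known to be removed through ubiquitin, while mRNA is what was measured here.

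Promoter sequences are shown for the markers with a CHR or E2F match, because these letters are the elements through which the genes are known to be switched on together. The sequences are of the GRCm39 genome, read 5′ to 3′ on the strand of the gene, from up to 250 bases before the start of the canonical GENCODE M39 transcript and without bases that lie in an exon. Capitals mark the letters searched, on both strands. For the CHR they were TTTGAA. For the CCAAT box they were those of its name, which appear as their complement where the box is on the other strand. For E2F they were TTTCCCGC, TTTCGCGC, TTTGCCGC or TTTGGCGC. *Top2a* is shown at chr11:98915063-98915291, minus strand, *Cdk1* at chr10:69188773-69189018, minus strand, *Mcm2* at chr6:88875763-88876012, minus strand, and *Mcm5* at chr8:75835890-75836139, plus strand.
Top2a: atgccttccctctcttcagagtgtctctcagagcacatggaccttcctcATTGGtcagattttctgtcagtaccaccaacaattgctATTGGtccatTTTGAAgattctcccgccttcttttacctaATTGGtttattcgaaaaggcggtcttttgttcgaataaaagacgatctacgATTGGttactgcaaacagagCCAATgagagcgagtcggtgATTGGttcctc
Cdk1: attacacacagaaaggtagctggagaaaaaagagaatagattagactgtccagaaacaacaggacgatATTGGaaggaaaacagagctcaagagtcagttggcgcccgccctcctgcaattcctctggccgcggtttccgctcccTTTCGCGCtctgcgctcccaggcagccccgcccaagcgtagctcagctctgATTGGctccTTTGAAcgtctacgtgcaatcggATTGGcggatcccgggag
Mcm2: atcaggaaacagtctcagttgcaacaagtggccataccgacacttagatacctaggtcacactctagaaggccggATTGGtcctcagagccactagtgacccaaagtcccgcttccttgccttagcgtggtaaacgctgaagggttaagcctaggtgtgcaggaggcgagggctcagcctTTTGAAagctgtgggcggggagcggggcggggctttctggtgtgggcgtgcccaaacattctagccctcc
Mcm5: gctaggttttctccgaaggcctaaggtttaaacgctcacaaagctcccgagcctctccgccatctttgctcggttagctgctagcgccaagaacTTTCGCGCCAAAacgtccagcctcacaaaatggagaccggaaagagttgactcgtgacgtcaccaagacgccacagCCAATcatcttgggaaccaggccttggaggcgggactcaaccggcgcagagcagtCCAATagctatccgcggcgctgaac
The CHR letters begin 153 bases before the start of *Top2a*, 45 before that of *Cdk1* and 70 before that of *Mcm2*. *Top2a* holds 6 CCAAT letters in its window, *Cdk1* 3, *Mcm5* 2 and *Mcm2* 1. The E2F letters begin 105 bases before *Cdk1*. Those of *Mcm5* form a run in which TTTCGCGC on the gene's strand, 156 bases before the start, overlaps TTTGGCGC on the other strand. Of 21770 promoter windows of this length, 15.6% held the CHR letters, 36.5% a CCAAT box and 2.28% one of the E2F forms, against 3, 5 and 2 of the 10 markers; the fifth with a CCAAT box was *Rrm2*. A match is a description of the letters, and no match says only that they are not in this window.

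Across the 8 muscles the markers were low, apart from *Pcna*. As TPM, transcript abundance per length relative to the whole library, *Pcna* mRNA was at 13.1 to 19.6 and made up 61.9 to 77.1% of the summed TPM of all 10, while *Mcm2* was at 2.09 to 3.15 TPM and *Rrm2* at 0.577 to 2.12 TPM. The other 7 stayed under 1 TPM in most muscles. The test kept those genes that reached 1 TPM in 4 or more muscles, which left 11530 genes and 3 of the 10 markers, *Pcna*, *Mcm2* and *Rrm2*. The markers below this limit are described by their values, an exact permutation test and the 95% interval of a fit without this limit. The files give no read totals, but low values move in steps of whole reads, and the smallest whole numbers that give each marker's 8 values, within 0.01 of a read, run from 5 to 190 for the 7 low markers and from 492 to 727 for *Pcna*. The counting error behind 5 reads is 44.7% of the value, against 4.51% at the lowest value of *Pcna*. These errors cover counting only.

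*Uba1* mRNA was lower in every muscle with *Uba1* siRNAs. *Uba1* was at 60.6, 59.0, 63.6 and 59.1 TPM in NT replicates 1 to 4 and at 18.1, 6.77, 15.8 and 23.1 TPM in *Uba1* replicates 1 to 4. The groups did not overlap, and *Uba1* replicate 2 was the lowest. The log2 fold change (log2FC, *Uba1* siRNAs versus NT siRNAs) of log2(TPM + 1) was -1.98, with an adjusted p of 0.0527 from limma, and of 0.0278 with the replicate number as a block. In limma the adjusted p was 0.0333 to 0.0486 with 3 other scalings, 0.0466 among genes of mean TPM 5 and up, and 0.131 without a limit on low values. With a muscle or a pair left out, the adjusted p passed 0.05 in 3 of 12 fits (0.00257 without *Uba1* replicate 2, 0.0207 without *Uba1* replicate 4 and 0.0230 without both muscles of replicate 2) and was 0.0760 to 0.294 in the others. Myofiber markers summed to between 107535 and 153570 TPM in all muscles, lowest in *Uba1* replicate 2, so the defining markers of the labelled tissue were present, and T and B cell markers summed to 2.35 TPM or less. Transcripts of the mitochondrial genome took 42.1 to 45.7% of the TPM with NT siRNAs and 39.9 to 50.3% with *Uba1* siRNAs, with 50.3% in *Uba1* replicate 2.

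None of the 10 proliferation markers passed the test between *Uba1* siRNAs and NT siRNAs. Of the 3 tested by limma, 0 passed an adjusted p of 0.05, where 0.0260% of all genes did, and 0 with the replicate block, where 0.494% did. At an unadjusted p under 0.05, 0 passed in limma, against 16.0% of all genes higher and 1.98% lower. In the Kruskal-Wallis test 1, *Pcna*, passed at this level (adjusted p = 0.226), where 19.2% of all genes did. With 4 muscles against 4, no gene could pass an adjusted p of 0.05 in the Kruskal-Wallis test here. In the fit without a limit on low values 0 of the 10 passed an adjusted p of 0.05, where 3 of 21532 genes did. There 0 of the 10 had an unadjusted p under 0.05, and the share of all genes at that level was not counted. The groups overlapped for all 10, while they did not for 11.6% of the genes tested. Two-sided exact permutation tests gave p from 0.0571 (*Pcna*) to 0.914 (*Mcm2* and *Rrm2*), and 4 muscles against 4 cannot go below 0.0286. In whole muscle, fewer cells of a type and less RNA per cell cannot be told apart.

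Most of the markers lay slightly below 0 in log2FC. In the fit without a limit, 9 of the 10 had a log2FC below 0, all but *Ccnb1*, where 27.6% of 21532 genes did, and among genes tested 3 of 3 did, where 18.2% did. The markers' median log2FC was -0.04 and that of all genes 0.05. With 1 of the other 6 muscles left out, 0 to 4 of the 10 were above 0, but without *Uba1* replicate 2, 8 were, with a median of 0.07, beside 76.1% of all genes. Without NT replicate 3, 5 of the 10 and 73.7% of all genes were above 0, and without both muscles of replicate 2, 5 of the 10 and 75.5% of all genes. The table's scale moves this background: the median log2FC of the genes tested was 0.11 as deposited and 0.00 after median-ratio scaling, under which 9 of the 10 markers and 49.3% of the genes tested were below 0 and the markers' median was -0.10.

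**Figure D1:**
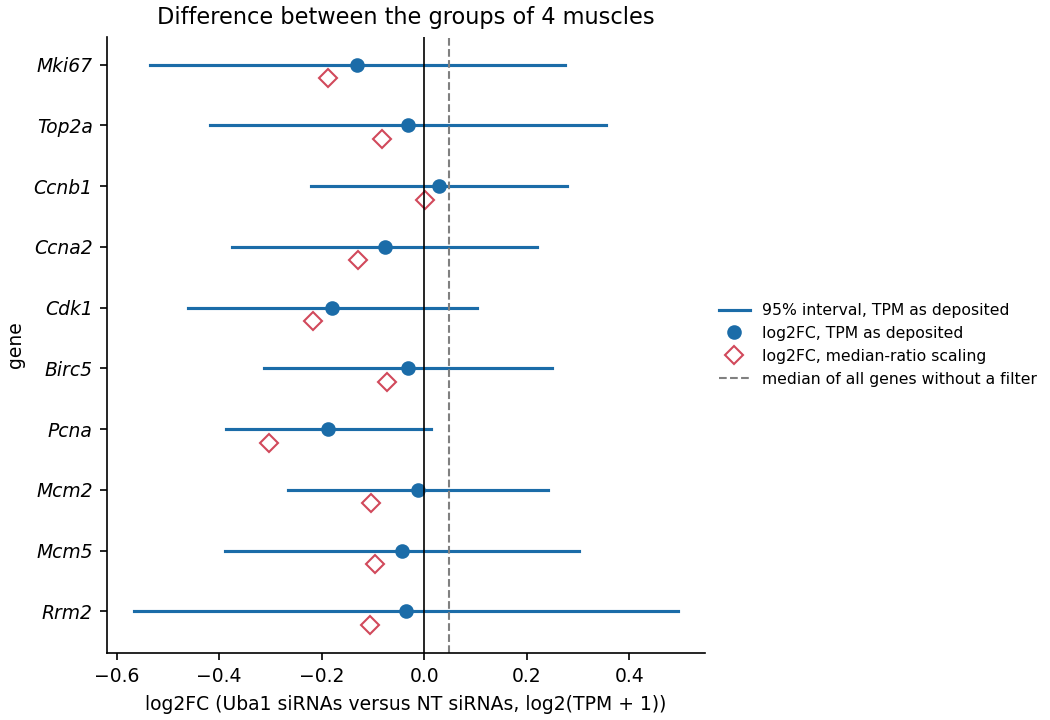
Log2FC of each proliferation marker (*x*-axis, log2(TPM + 1), *Uba1* siRNAs versus NT siRNAs, 4 muscles each); points with lines are the TPM as deposited with the 95% interval of the limma fit without a limit on low values, diamonds are the log2FC after median-ratio scaling, and the dashed line is the median of all genes. All 10 intervals include 0, and that of *Rrm2*, from -0.57 to 0.49, is the widest.

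Among the S phase markers, *Pcna* came closest to a difference. It encodes the sliding clamp that holds DNA polymerases on DNA and that also serves in DNA repair, and lies on chromosome 2 (132091082 to 132095234, minus strand). It was at 16.8, 19.6, 17.3 and 17.6 TPM in NT replicates 1 to 4 and at 17.2, 13.1, 15.7 and 16.3 TPM in *Uba1* replicates 1 to 4. The 3 lowest muscles had *Uba1* siRNAs, and the groups overlapped through *Uba1* replicate 1, which was above NT replicate 1. The means were 17.8 ± 1.22 and 15.6 ± 1.75 TPM (SD, n = 4 each), a ratio of 0.874. The log2FC was -0.19 (95% interval -0.39 to 0.02, adjusted p = 0.306 from limma, 0.268 with the block). Without both muscles of replicate 2 it was -0.07, and after median-ratio scaling -0.30 (adjusted p = 0.226 from limma, 0.183 with the block).

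*Mcm2* and *Mcm5* encode subunits of the MCM helicase that unwinds DNA at replication origins. *Mcm2* (chromosome 6, 88860452 to 88875762, minus strand) was at 2.93, 2.75, 2.67 and 2.58 TPM in NT replicates 1 to 4 and at 3.15, 2.09, 3.13 and 2.54 TPM in *Uba1* replicates 1 to 4. The group with *Uba1* siRNAs held both the highest and the lowest muscle, and its SD, 0.511 TPM, was above the 0.148 TPM of the group with NT siRNAs, around nearly equal means of 2.72 and 2.73 TPM. The log2FC was -0.01 (95% interval -0.25 to 0.22, adjusted p = 0.955 from limma). *Mcm5* (chromosome 8, 75836140 to 75856231, plus strand) was at 0.699, 0.566, 1.22 and 0.569 TPM in NT replicates 1 to 4 and at 0.866, 0.320, 0.813 and 0.840 TPM in *Uba1* replicates 1 to 4. NT replicate 3 was the highest and *Uba1* replicate 2 the lowest, with the other 6 muscles between them. The log2FC was -0.04 (95% interval -0.39 to 0.30 in the fit without a limit), and the exact permutation test gave p = 0.771.

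*Rrm2* encodes the small subunit of ribonucleotide reductase, which makes deoxynucleotides in S phase (chromosome 12, 24757811 to 24764145, plus strand). It was at 0.824, 0.722, 2.12 and 1.32 TPM in NT replicates 1 to 4 and at 1.76, 0.577, 1.40 and 0.974 TPM in *Uba1* replicates 1 to 4. The highest muscle was 3.68 times the lowest, and the groups overlapped, with the highest muscle in the NT group and the lowest in the *Uba1* group. The log2FC was -0.04 (95% interval -0.54 to 0.47, adjusted p = 0.937 from limma), the widest of the 3 intervals.

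Among the markers of G2 and mitosis, *Cdk1* had the lowest ratio of means. It encodes the kinase that drives entry into mitosis (chromosome 10, 69170976 to 69236595, minus strand). *Cdk1* was at 0.437, 0.458, 0.704 and 0.251 TPM in NT replicates 1 to 4 and at 0.481, 0.0648, 0.406 and 0.227 TPM in *Uba1* replicates 1 to 4. *Uba1* replicate 2 held 5 reads by the whole steps, and the highest muscle, NT replicate 3, held 52. The ratio of means was 0.637, the log2FC -0.18 (95% interval -0.46 to 0.10 in the fit without a limit) and the exact permutation p 0.229. Its log2FC ran from -0.25 to -0.09 with a muscle or pair left out, and was -0.60 (exact permutation p = 0.257) with a pseudocount of 0.1 in place of 1. Of the other low markers, this pseudocount gave -0.35 for *Mki67*, -0.15 for *Top2a*, 0.18 for *Ccnb1*, -0.23 for *Ccna2*, -0.18 for *Birc5* and -0.11 for *Mcm5*.

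The partners of CDK1 are cyclins A2 and B1. *Ccna2* (chromosome 3, 36619014 to 36626299, minus strand) was at 0.528, 0.459, 0.802 and 0.658 TPM in NT replicates 1 to 4 and at 0.763, 0.251, 0.778 and 0.371 TPM in *Uba1* replicates 1 to 4. The muscles with *Uba1* siRNAs fell into a higher pair, replicates 1 and 3, and a lower pair, replicates 2 and 4, on either side of most NT values, with a log2FC of -0.08 (95% interval -0.37 to 0.22, exact permutation p = 0.543). *Ccnb1* (chromosome 13, 100915153 to 100923116, minus strand) was at 0.406, 0.0766, 0.349 and 0.0817 TPM in NT replicates 1 to 4 and at 0.305, 0.121, 0.393 and 0.172 TPM in *Uba1* replicates 1 to 4. It was the lowest-expressed marker in TPM, with 5 to 27 reads a muscle, and the marker for which *Uba1* replicate 2 was not the lowest. In both legs replicates 1 and 3 were above replicates 2 and 4. Its log2FC was 0.03 (95% interval -0.22 to 0.28, exact permutation p = 0.743).

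*Top2a* encodes the topoisomerase that untangles sister chromosomes (chromosome 11, 98883769 to 98915062, minus strand). It was at 0.514, 0.430, 0.897 and 0.329 TPM in NT replicates 1 to 4 and at 0.812, 0.156, 0.774 and 0.343 TPM in *Uba1* replicates 1 to 4, with a log2FC of -0.03 (95% interval -0.42 to 0.35, exact permutation p = 0.857). *Birc5* encodes survivin, a subunit of the chromosomal passenger complex that corrects attachments to the spindle (chromosome 11, 117740040 to 117746581, plus strand). It was at 0.373, 0.266, 0.589 and 0.365 TPM in NT replicates 1 to 4 and at 0.518, 0.0940, 0.589 and 0.309 TPM in *Uba1* replicates 1 to 4, with a log2FC of -0.03 (95% interval -0.31 to 0.25, exact permutation p = 0.800). Both genes were higher than the NT leg in *Uba1* replicate 1 and lowest in *Uba1* replicate 2.

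*Mki67* encodes Ki-67, the coat protein of mitotic chromosomes that is present in all cycling phases (chromosome 7, 135291513 to 135318299, minus strand). *Mki67* was at 0.643, 0.661, 1.26 and 0.685 TPM in NT replicates 1 to 4 and at 0.828, 0.222, 1.09 and 0.549 TPM in *Uba1* replicates 1 to 4. In both legs replicate 3 was the highest, and *Uba1* replicate 2 was the lowest, with 35 reads against 84 or more in the other 7 muscles. The means were 0.813 ± 0.300 and 0.673 ± 0.373 TPM (SD, n = 4 each), the log2FC -0.13 (95% interval -0.54 to 0.27 in the fit without a limit) and the exact permutation p 0.600. Positions are those of GENCODE M39 on GRCm39. *Pcna*, *Ccna2*, *Cdk1*, *Rrm2*, *Mki67* and *Top2a* overlap annotated genes on the opposite strand, such as *Exosc9* for *Ccna2* and *Ank3* for *Cdk1*, and the library kit named in the study's methods does not mark strand, so their reads cannot be told apart where exons overlap.

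**Figure D2:**
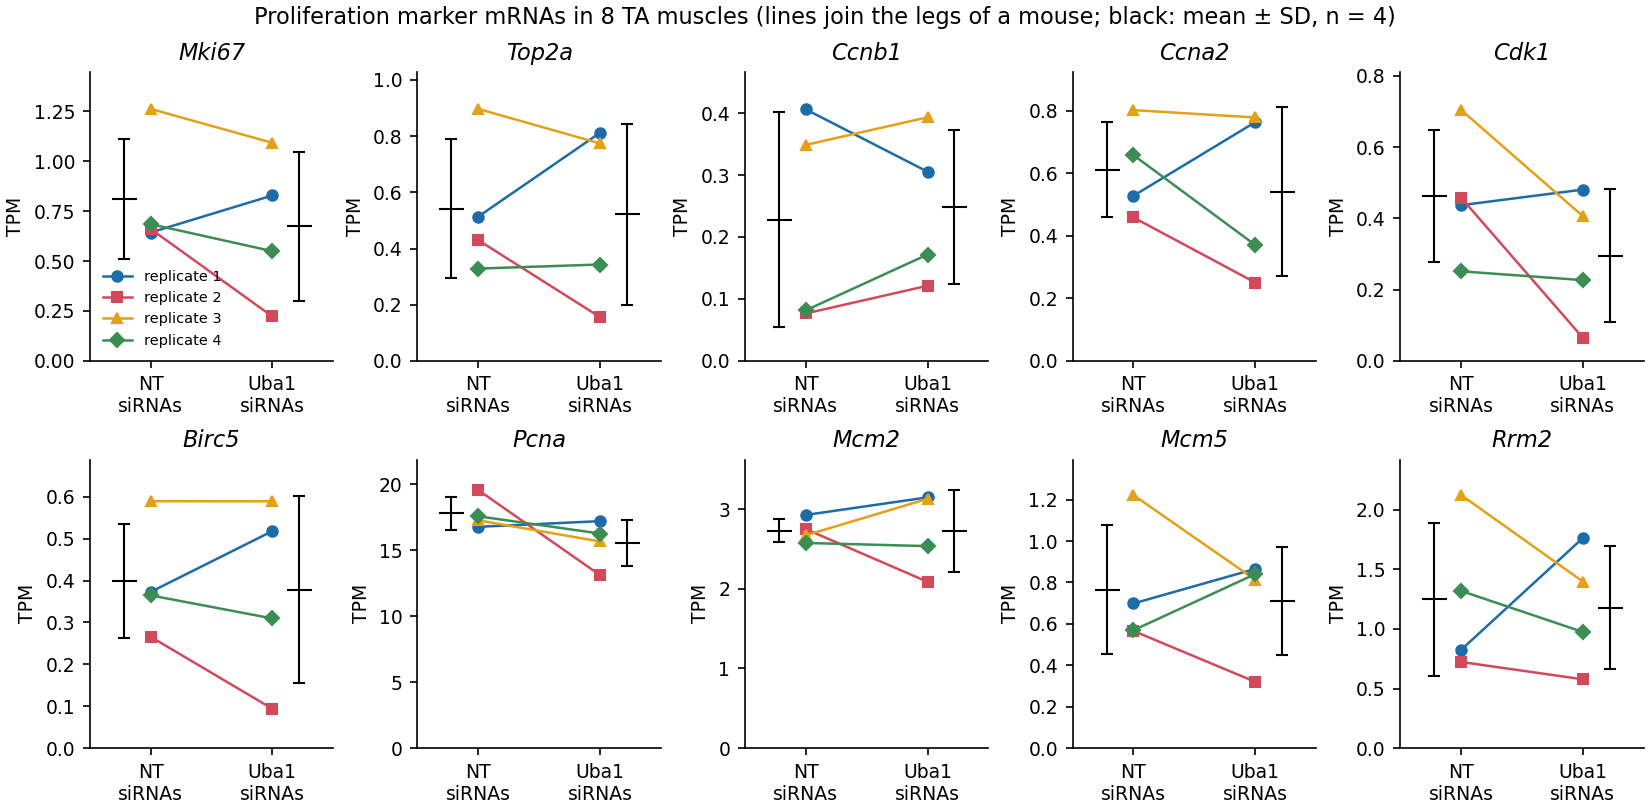
TPM (*y*-axis, from 0) of each proliferation marker in the 4 muscles with NT siRNAs and the 4 with *Uba1* siRNAs; lines join the legs of a mouse, and black bars are the mean ± SD of each group (n = 4). *Uba1* replicate 2 (red) is the lowest muscle in 9 of the 10 panels, as for 19.8% of genes above 0 TPM in all muscles. Replicate 1 (blue) is higher with *Uba1* siRNAs in 9 of them, where 83.3% of all genes tested were.

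For each of the 10 markers the muscles with NT siRNAs differed among themselves by more than the group means did. The highest muscle was 3.20 to 10.9 times the lowest for the 7 low markers, and 1.49 to 3.68 times for the 3 tested. *Uba1* replicate 2 was the lowest of the 8 muscles for 9 of the 10 markers, where it was the lowest for 19.8% of 15736 genes above 0 TPM in all muscles. NT replicate 3 was the highest for 7 of the 10 (*Mki67*, *Top2a*, *Ccna2*, *Cdk1*, *Birc5*, *Mcm5* and *Rrm2*), where it was the highest for 6.72% of these genes. The counts were 9 and 7 after median-ratio scaling, and 8 and 7 with TPM rescaled without the mitochondrial genes. The choice of these 2 muscles was made after their values were seen, and the markers share libraries and are not independent.

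Most markers were higher with *Uba1* siRNAs in replicate 1 and lower in replicates 2 to 4. In replicate 1, 9 of the 10 markers were higher with *Uba1* siRNAs and 1 was lower, where 83.3% of the genes tested were higher. The markers' median log2 difference was 0.14, beside 0.19 over the genes tested. In replicate 2, 9 were lower, where 43.9% of the genes tested were, with a median of -0.26, beside 0.03 over the genes tested. In replicates 3 and 4, 8 and 7 were lower, where 18.2% and 38.2% of the genes tested were. The medians were -0.10 and -0.04, beside 0.15 and 0.04. No marker was lower in all 4 mice, and 6 were lower in 3 of them. These counts over mice were not made for all genes. On the mean of the markers' log2 values, each centred and divided by its SD over the 8 muscles, NT replicates 1 to 4 were at 0.10, -0.24, 1.07 and -0.24 and *Uba1* replicates 1 to 4 at 0.71, -1.63, 0.67 and -0.44.

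Part of the satellite cell and myoblast markers followed the order of the proliferation markers across the muscles. The 10 satellite cell and myoblast markers summed to 93.9, 74.0, 131 and 69.7 TPM in NT replicates 1 to 4 and to 126, 53.2, 108 and 67.5 TPM in *Uba1* replicates 1 to 4, the lowest again in *Uba1* replicate 2 and the highest in NT replicate 3. *Myog*, the transcription factor of myoblast differentiation, was at 27.6 TPM in NT replicate 3 and 5.90 TPM in *Uba1* replicate 2. *Myh3*, embryonic myosin heavy chain, was at 21.7 and 0.760 TPM in these muscles. Other genes of the list did not share this order. *Pax7*, which marks satellite cells at rest as well, was at 1.95 TPM in NT replicate 3, 1.82 TPM in *Uba1* replicate 2 and lowest, at 0.823 TPM, in NT replicate 4. *Myod1*, which commits cells to the myogenic lineage, was at 22.1 TPM in NT replicate 3 and 24.4 TPM in *Uba1* replicate 2, and *Myf5*, of the same family, was lowest in NT replicate 1, at 1.06 TPM. Between the groups, 3 of these 10 markers were above and 7 below 0 in log2FC, with a median of -0.31 beside 0.11 for all genes tested, and 0 passed an adjusted p. At an unadjusted p under 0.05, 1 was higher, where 16.0% of all genes tested were: *Cdh15*, an adhesion protein of satellite cells and myoblasts (log2FC 0.29, adjusted p = 0.243 from limma).

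**Figure D3:**
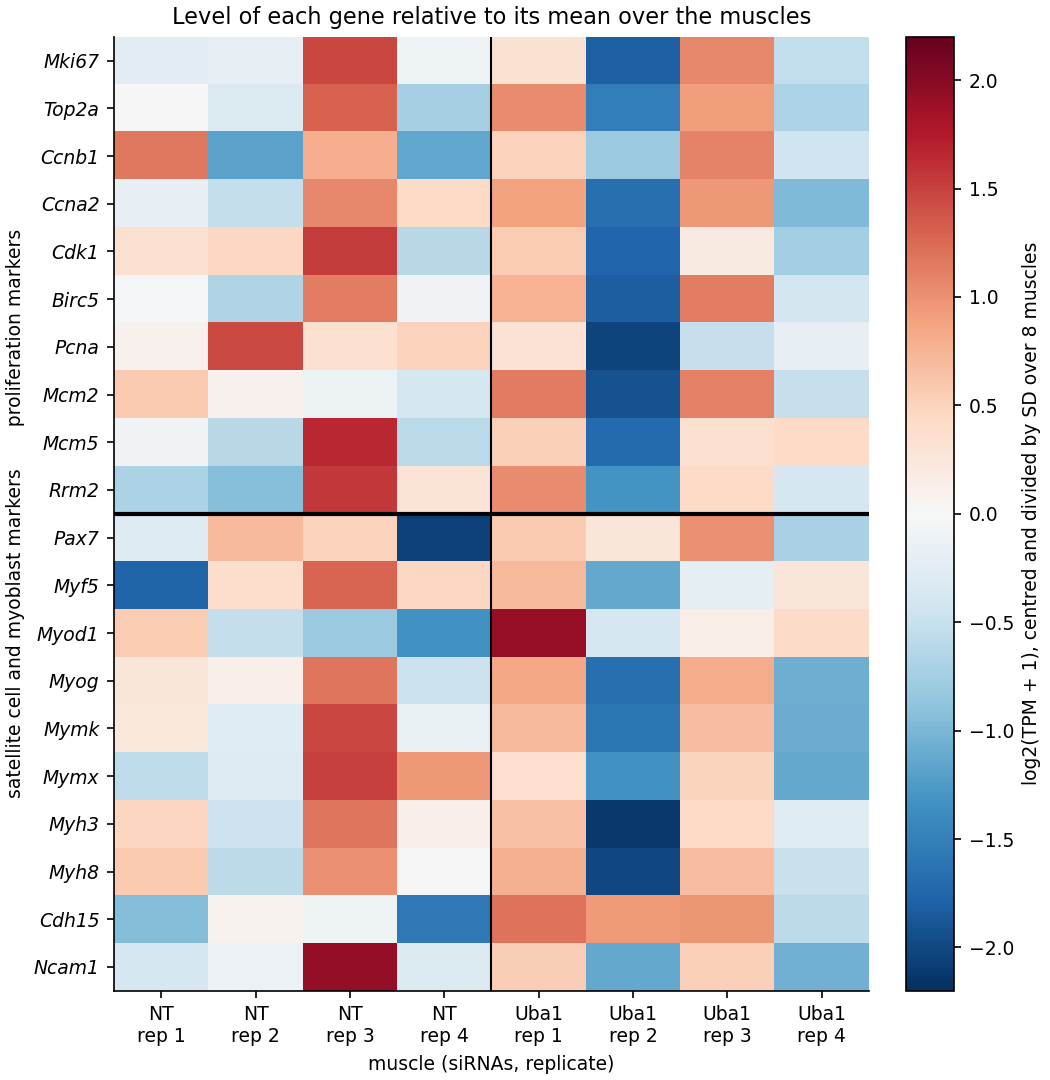
Level of the 10 proliferation markers and the 10 satellite cell and myoblast markers in each muscle, as log2(TPM + 1) centred on the gene's mean and divided by its SD over the 8 muscles (red higher, blue lower). *Uba1* replicate 2 is the lowest muscle for 9 proliferation markers and for 6 of the 10 satellite cell and myoblast markers.

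Markers of other cells that can divide in muscle were compared muscle by muscle. The 14 macrophage markers summed to 244, 284, 510 and 163 TPM in NT replicates 1 to 4 and to 387, 150, 527 and 183 TPM in *Uba1* replicates 1 to 4. The 9 markers of fibroblasts and fibro-adipogenic progenitors, the stromal cells between fibers, summed to 806, 586, 1018 and 502 TPM in NT replicates 1 to 4 and to 1072, 634, 1261 and 747 TPM in *Uba1* replicates 1 to 4. The 3 muscles with the most macrophage and the most fibroblast mRNA, NT replicate 3 and *Uba1* replicates 1 and 3, were the 3 with the highest sum of the proliferation markers other than *Pcna*, at 10.6, 9.48 and 9.37 TPM. The 8 endothelial markers ranged from 129 to 194 TPM with NT siRNAs and from 142 to 183 TPM with *Uba1* siRNAs and did not share this order. Erythroid markers, which come with blood, ranged from 1923 to 6999 TPM and from 1841 to 3677 TPM. Of the 8 T and B cell markers 0 reached the limit for testing, and *Trac* was listed at 0 in all muscles. In none of these lists, nor among smooth muscle and pericyte, Schwann cell or neutrophil markers, did a gene pass an adjusted p, and log2FC were above 0 for 9 of 9 fibroblast markers tested (median 0.26) and 4 of 4 neutrophil markers (median 0.48), where 81.8% of all genes tested were, and below 0 for 5 of 5 erythroid markers (median -0.69), where 18.2% were. After median-ratio scaling 8 of the 9 fibroblast markers were above 0, with a median of 0.14. At an unadjusted p under 0.05, where 16.0% of all genes tested were higher, *Lum* (fibroblasts, log2FC 0.49) and *Mmp9* (neutrophils, log2FC 0.44) were higher, with adjusted p of 0.187 and 0.224 from limma. The part of these cells in the markers' levels was not tested.

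**Figure D4:**
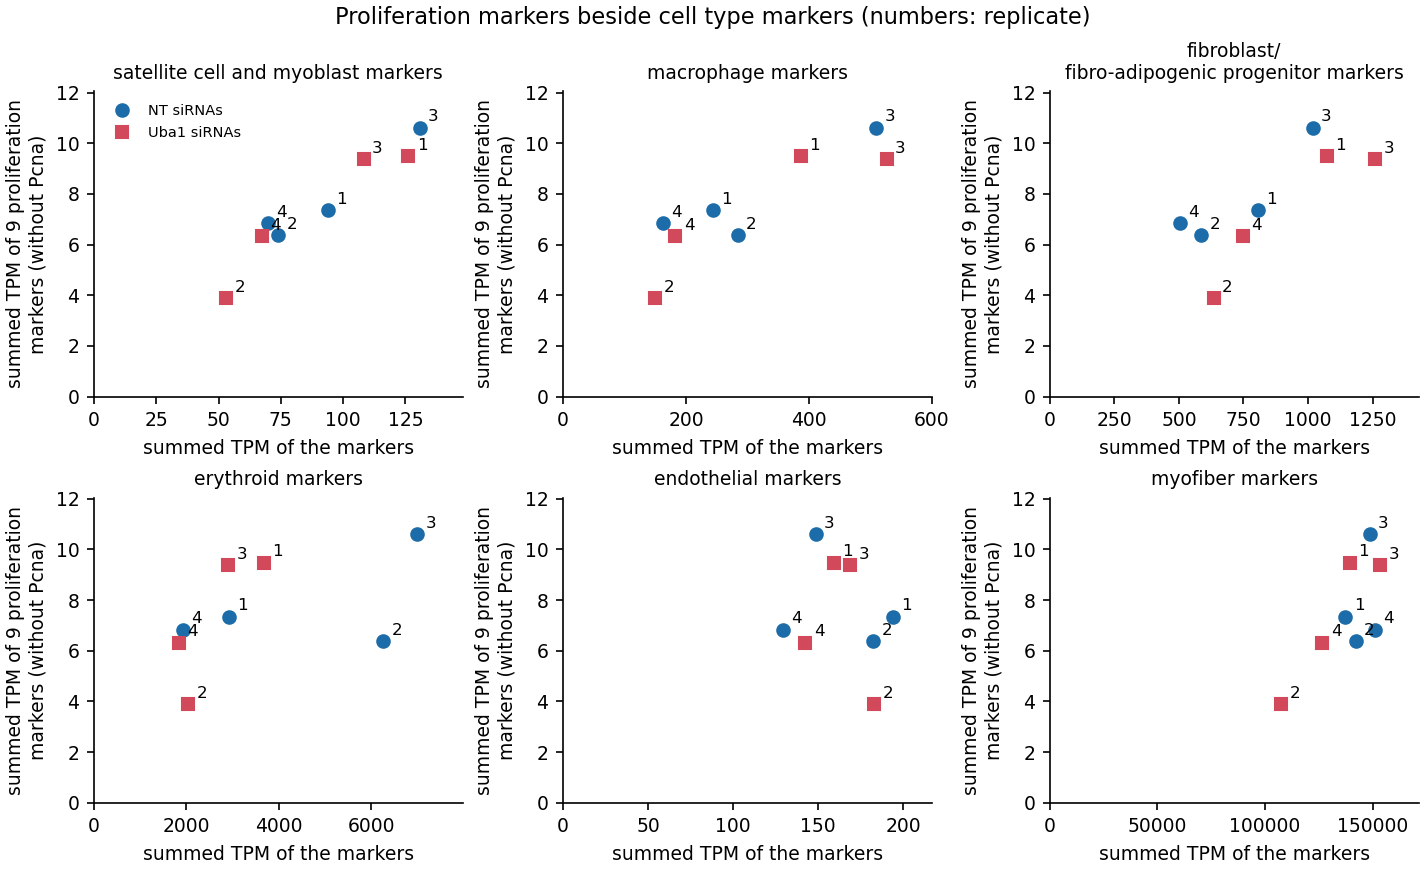
Summed TPM of the 9 proliferation markers other than *Pcna* (*y*-axis) against the summed TPM of 6 lists of cell type markers (*x*-axes), one point per muscle, with blue circles for NT siRNAs, red squares for *Uba1* siRNAs and numbers for the replicate. NT replicate 3 and *Uba1* replicates 1 and 3 lie at the upper right for satellite cell and myoblast, macrophage and fibroblast markers, and *Uba1* replicate 2 is the lowest point in each panel.

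The genes whose pattern was most like the markers' mean over the 8 muscles were *Pmf1* (Pearson r = 0.988), a kinetochore subunit, *Tceal8* (0.984), *Myl4* (0.984), the embryonic and atrial myosin light chain, *Niban2* (0.981) and *Ppfia4* (0.980). The muscles came in pairs from 4 mice and share their library with the markers, so these correlations are a description. Of 11527 genes compared, 245 had an r above 0.9 and the median was 0.325. *Myl4* was at 13.0, 8.44, 24.7 and 10.9 TPM in NT replicates 1 to 4 and at 20.1, 1.83, 16.5 and 8.42 TPM in *Uba1* replicates 1 to 4. Among the 10 satellite cell and myoblast markers, r was 0.957 for *Myog*, 0.962 for *Mymk*, the gene of the fusion protein myomaker, 0.958 for *Myh3* and 0.967 for *Myh8*, perinatal myosin heavy chain. It was lower for the other 6, at 0.872 for *Ncam1*, 0.782 for *Mymx*, 0.519 for *Myf5*, 0.300 for *Pax7*, 0.250 for *Myod1* and 0.0655 for *Cdh15*.

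Other cell cycle genes were read from the same fit in 5 lists, and in each list 0 genes passed an adjusted p with or without the block. Of 40 further replication genes, the helicase, origin and polymerase genes among them, 21 were tested, 16 above and 5 below 0 in log2FC, where 81.8% of all genes tested were above 0, with a median of 0.05. At an unadjusted p under 0.05, 0 of the 21 passed, against 16.0% of all genes higher and 1.98% lower. Of 56 mitosis genes, 12 were tested, 6 above and 6 below 0, with a median of -0.02. *Uba1* replicate 2 was the lowest muscle for 31 of the 56, for 14 of the 40 replication genes, for 9 of 20 G1 cyclins, CDKs and E2F factors, for 11 of 31 cell cycle ubiquitin ligase genes and for 1 of 13 CDK inhibitors and pocket proteins, against 19.8% of genes above 0 TPM in all muscles. Beside these medians stood 0.11 for all genes tested. Without *Uba1* replicate 2 the medians were 0.10 for the replication genes, 0.10 for the mitosis genes and 0.14 for all genes tested. After median-ratio scaling the replication genes split 8 above to 13 below 0 and the mitosis genes 4 to 8.

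*Tpx2* lay apart from the other mitosis genes tested. It encodes a factor of spindle assembly that activates Aurora kinase A. It was at 1.25, 1.05, 1.56 and 1.40 TPM in NT replicates 1 to 4 and at 1.80, 2.65, 2.29 and 2.79 TPM in *Uba1* replicates 1 to 4. The groups did not overlap, as for 11.6% of all genes tested, and *Uba1* replicate 2, the lowest muscle for 9 of the 10 markers, was among the highest for *Tpx2*. It was the 1 of the 12 mitosis genes tested that was higher at an unadjusted p under 0.05, where 16.0% of all genes tested were. The log2FC was 0.54 with an adjusted p of 0.129 from limma, or 0.0743 with the block. Over the 8 muscles its r with the markers' mean was -0.34.

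More of the genes that open the cell cycle reached the limit on low values. Of 20 G1 cyclins, CDKs and E2F factors, 16 were tested, 12 above and 4 below 0, with a median of 0.08, and 4 were higher at an unadjusted p under 0.05, where 16.0% of all genes tested were. The 3 with the smallest p were *E2f6*, a repressor of the E2F family, *Cdc25a*, the phosphatase that activates CDKs, and *E2f3*, an activator, with log2FC of 0.21, 0.23 and 0.20 and adjusted p of 0.222, 0.232 and 0.247 from limma. *Cdc25a* was at 1.64, 1.68, 1.74 and 1.43 TPM in NT replicates 1 to 4 and at 2.02, 1.82, 2.46 and 2.00 TPM in *Uba1* replicates 1 to 4. Its groups did not overlap, as for 11.6% of all genes tested. After median-ratio scaling the list split 6 above to 10 below 0.

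Among 13 CDK inhibitors and pocket proteins, which hold cells out of the cycle, 10 were tested, 7 above and 3 below 0, with a median of 0.09, or -0.03 after median-ratio scaling. *Cdkn1a*, which encodes the inhibitor p21, was the gene at an unadjusted p under 0.05 and was lower, where 1.98% of all genes tested were. It was at 24.2, 28.8, 30.3 and 17.9 TPM in NT replicates 1 to 4 and at 23.6, 14.6, 18.3 and 10.5 TPM in *Uba1* replicates 1 to 4. It was lower with *Uba1* siRNAs in each mouse, though the groups overlapped. The log2FC was -0.60 and the adjusted p 0.241 from limma, or 0.0898 with the block. *Wee1*, the kinase that inhibits CDK1, was named after its values were seen and was also lower in each mouse, with a log2FC of -0.36 and an adjusted p of 0.345 from limma, or 0.0849 with the block.

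Of 31 genes of the ubiquitin ligases that act in the cell cycle, 26 were tested, 22 above and 4 below 0, with a median of 0.12, close to that of all genes. At an unadjusted p under 0.05, 3 of the 26 were higher, where 16.0% of all genes tested were. They encode subunits of the anaphase-promoting complex, which marks cyclin B1 for removal. *Anapc16* had a log2FC of 0.22, *Cdc27* of 0.31 and *Anapc1* of 0.20, with adjusted p of 0.174, 0.182 and 0.193 from limma. *Cdc27* was at 6.13, 5.76, 6.86 and 7.36 TPM in NT replicates 1 to 4 and at 8.29, 7.47, 9.67 and 7.88 TPM in *Uba1* replicates 1 to 4. Its groups did not overlap, as for 11.6% of all genes tested. After median-ratio scaling the list split 15 above to 11 below 0.

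**Figure D5:**
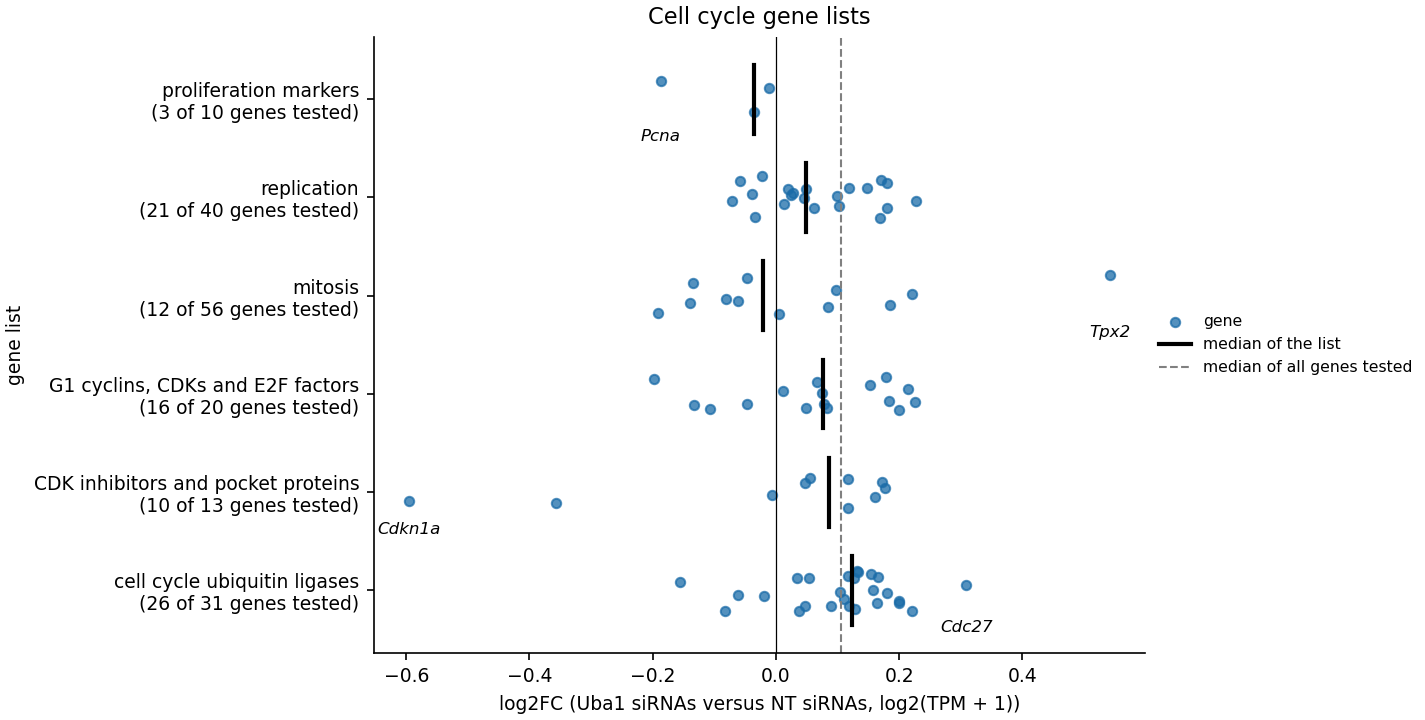
Log2FC (*x*-axis, log2(TPM + 1), *Uba1* siRNAs versus NT siRNAs) of the genes tested in each cell cycle list; each point is a gene, scattered vertically for sight, black bars are medians of the lists and the dashed line is the median of all genes tested, 0.11. *Tpx2* lies far to the right at 0.54 and *Cdkn1a* far to the left at -0.60, while the 3 tested proliferation markers lie at or left of 0.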

How the data were processed

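RNA-seq was done by the study on 8 TA muscles. The authors trimmed paired-end reads, aligned them to the mouse genome (GRCm39) with CLC Genomics Workbench and deposited TPM per gene, which keep no read totals. The annotation, the handling of reads that match several genes and the use of strand in counting are not given in the sources used here. Protein and *Drosophila* data were not used here, and 0 columns of values lacked a sample.

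Values were set on the log2(TPM + 1) scale, and genes that reached 1 TPM in 4 or more muscles were tested with limma. The fit used version 3.58.1 in R 4.3.3, lmFit and eBayes with trend and no covariate, with Benjamini-Hochberg adjustment over all genes tested. The pseudocount shrinks the log2FC of low genes in either direction, so the printed value is smaller in size than their change in TPM. The scripts were tested on simulated data. Markers were also compared with two-sided exact permutation tests of their log2 values. P-values measure the spread between single muscles, 1 per mouse and group. Intervals are at 95%.

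Same-numbered muscles are legs of 1 mouse by the study's methods, and their deviations from the group means correlated over genes at -0.000368, 0.201, 0.584 and 0.537 in replicates 1 to 4. The fit with this replicate as a block was an alternative, as were another pseudocount and limits on low values, 3 other scalings, the Kruskal-Wallis test and leaving out muscles.

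Named were the 10 markers, *Uba1*, in each list the genes past the adjusted p and the 3 with the smallest unadjusted p under 0.05, and the 5 genes most like the markers. *Myog*, *Mymk*, *Myh3*, *Myh8*, *Pax7*, the other genes of that list, *Trac*, *Wee1*, *Stmn1* and *Rrm2b* were named after their values were seen. The 10 proliferation markers are a list of names with no threshold on their values, but this list, the cell cycle lists and the cell type markers were chosen with earlier results of these data known. Positions and promoters come from GENCODE M39 and GRCm39.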

Additional observations from a re-analysis of the deposited data

Results flagged for a closer look

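In 48 groups of 4 muscles, taken from part of the genes named, 5 had a muscle whose gap to the nearest other muscle was large for the group's range (Dixon's 95% limit). For independent groups not picked by their values, chance gives about 1 in 20, or 2.4 groups. Some of these genes were named for their values and all share libraries, so that rate is only a guide. *Mki67* was at 1.26 TPM in NT replicate 3, far above the other muscles with NT siRNAs, and *Mcm5* at 0.320 TPM in *Uba1* replicate 2, far below the others with *Uba1* siRNAs. These are the muscles that were highest and lowest for most proliferation markers. *Anapc1* was at 5.98 TPM in *Uba1* replicate 1 and *Cdh15* at 11.8 TPM in *Uba1* replicate 4, each the low muscle of its group. *Rrm2b* was at 5.41 TPM in NT replicate 4, the high muscle of its group. The cause was not tested.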

How the results depend on the processing

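In the alternatives run, 0 of the markers passed the adjusted test or, for the 7 low markers, the exact test. The smallest p was 0.0857, from the exact test of *Cdk1* with quantile normalization. The exact test of *Pcna* was run on the TPM as deposited only and gave 0.0571. For the 7 low markers the exact test without a pair, 3 muscles against 3, cannot go below 0.10 and says nothing of stability. Of 180 log2FC values of the 10 markers, 27 turned sign, and 26 of these left out a muscle or a pair. Those from other limits on low values, the block and the Kruskal-Wallis test repeat a log2FC of the same scale. They are no separate check of the sign. *Ccnb1* turned to -0.0034 with quantile normalization. With muscles or pairs left out the log2FC ran from -0.25 to 0.011 for *Mki67*, -0.13 to 0.092 for *Top2a*, -0.031 to 0.097 for *Ccnb1*, -0.17 to 0.017 for *Ccna2*, -0.10 to 0.075 for *Birc5*, -0.072 to 0.077 for *Mcm2*, -0.13 to 0.076 for *Mcm5* and -0.25 to 0.14 for *Rrm2*. *Pcna* and *Cdk1* kept their sign. Of the markers tested, 0 were above 0, 1 of 10 without a limit on low values, and 0 to 2 with muscles left out.

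Genes passing the adjusted p among all genes numbered 3, but 11 among genes of mean TPM 5 and up. After median-ratio scaling there were 23, after rescaling without mitochondrial genes 13, and 28 when quantile normalization was used. With the replicate block, which pairs the legs of a mouse, they numbered 57, and 76 with median-ratio scaling as well, and the block changed no call of *Pcna*, *Mcm2* or *Rrm2*, the markers it was fitted for. The Kruskal-Wallis test gave 0 (2210 at an unadjusted p under 0.05) and could give no other count. Its smallest p is shared by all genes whose groups do not overlap. *Uba1* is among these, and its adjusted p in this test was 0.180. With muscles left out they ranged from 0 (without replicate 1 or 3, where limma had 1376 and 1123 at an unadjusted p under 0.05) to 39 (without *Uba1* replicate 4). The cause was not tested. The 7 low markers rest on few reads, which limits what a group of 4 can show.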

Other observations

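*Rrm2b*, which encodes the form of the small ribonucleotide reductase subunit that serves cells outside S phase and is known as a target of p53, was looked at after its values were seen, beside *Rrm2*. It was at 4.39, 4.40, 4.35 and 5.41 TPM in NT replicates 1 to 4 and at 6.42, 6.39, 5.70 and 6.02 TPM in *Uba1* replicates 1 to 4. The groups did not overlap, as for 11.6% of all genes tested. The log2FC was 0.34, where 81.8% of all genes tested were above 0, with an adjusted p of 0.143 from limma, or 0.0901 with the replicate block. It was above *Rrm2* in TPM in every muscle, and it did not share the low value of *Uba1* replicate 2. *Stmn1*, a regulator of microtubules used in mitosis, had an r of 0.974 with the markers' mean over the 8 muscles, as a description, and was at 5.63 TPM in NT replicate 3 and 1.63 TPM in *Uba1* replicate 2.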
